A study of Mus musculus with 10 samples.

Results

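Cck, Trh, Crh, Vip, Gal, Nmb and Pthlh are neuropeptide genes that are expressed in the striatum at far lower levels than its main peptide genes. They were taken by symbol from a list of 9 genes, of which Adcyap1 and Grp were not analysed here, so 7 genes of the 20483 in the expression table are described. The series compares the lateral shell (5 libraries) with the medial shell (5 libraries) of the nucleus accumbens, the ventral part of the striatum, in wild-type mice, and its title asks how the subregions process reward. All 10 libraries came from untreated wild-type tissue as far as the labels say, and the labels used here give neither age nor sex. The libraries came from Geo-seq, a method that lifts tiny areas out of cut tissue with a laser and amplifies the little RNA they hold. The labels call the libraries biological replicates of their region but name no animal for any library, so some may share one. The p-values below measure only the spread between these libraries, and can be too small if libraries of one region share an animal.

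Neuropeptides are cut from longer precursor proteins in the secretory pathway, stored in dense-core vesicles and released to act on G-protein-coupled receptors, often at a distance from the release site. In the striatum most neurons are spiny projection neurons that make enkephalin, dynorphin or substance P. Other peptides belong mainly to scattered interneurons, to small subsets of projection neurons or to cells at the borders of the region. A piece of tissue that holds a few such cells can therefore differ from the next piece, and in bulk tissue fewer cells of a type and less RNA per cell cannot be told apart.

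The Trh precursor shows how one such gene encodes its peptide. Thyrotropin-releasing hormone is a tripeptide, and the precursor holds it in several copies. In the GENCODE M21 transcript Trh-201, whose coding sequence has 256 codons before the stop, a glutamine, a histidine, a proline and a glycine codon stood in frame between pairs of lysine or arginine codons at 5 places. The pairs of basic residues are where prohormone convertases cut, and the glycine gives the amide at the end of the hormone. Of 21504 mouse genes with a complete coding sequence, 1 held such a unit (0.00465%), which was Trh. The units are shown because Trh had the widest difference of the 7 genes. Capitals mark the 4 codons of the unit and lower case the basic codons on either side.
Trh codons 75 to 82: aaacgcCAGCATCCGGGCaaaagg
Trh codons 107 to 114: aaacgaCAGCACCCTGGCcgacgt
Trh codons 152 to 159: aagcggCAGCACCCTGGCaggcga
Trh codons 170 to 177: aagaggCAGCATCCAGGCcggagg
Trh codons 201 to 208: aaacgtCAGCATCCTGGCaaaagg

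Glycine codons followed by 2 basic codons, the signal for an amidated peptide end, were also found once each in Cck, Gal and Nmb, at 2 places in Vip and at 3 in Pthlh. The Crh sequence held none by this rule. The rule does not count a glycine codon with fewer basic codons after it, so this does not mean that the Crh peptide lacks the amide. Such a triplet is common and stood in 34.8% of the 21504 coding sequences, so it need not mark an amidated end. The stretches below, from the principal transcript of each gene, give the 12 codons before it, and capitals mark the triplet. They show the ends of cholecystokinin, galanin and neuromedin B, and in Vip first that of a related peptide cut from the same precursor and then that of vasoactive intestinal peptide.
Cck codons 92 to 106: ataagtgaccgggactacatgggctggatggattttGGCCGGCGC
Gal codons 50 to 64: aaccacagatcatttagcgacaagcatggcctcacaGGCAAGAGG
Nmb codons 45 to 59: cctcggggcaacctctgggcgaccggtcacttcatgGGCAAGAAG
Vip codons 97 to 111: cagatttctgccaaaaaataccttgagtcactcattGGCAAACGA
Vip codons 142 to 156: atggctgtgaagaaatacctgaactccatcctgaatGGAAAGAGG

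Levels are given as TPM, a share of each library's transcripts that divides reads by gene length and by the library's total. This puts genes on one scale within a library, while a few very abundant genes can shift the whole scale of a library, and alternatives to it were run. In lateral libraries the order of the means was Trh at 17.0 ± 17.0 TPM (SD, n = 5), Cck at 9.58 ± 5.55, Pthlh at 7.76 ± 9.27, Crh at 6.73 ± 4.07, Gal at 5.41 ± 7.15, Nmb at 4.59 ± 3.25 and Vip at 0.723 ± 0.728 TPM. In medial libraries it was Pthlh at 4.28 ± 2.45 TPM (SD, n = 5), Nmb at 3.15 ± 2.42, Cck at 2.76 ± 4.34, Crh at 1.47 ± 3.29, Vip at 0.798 ± 0.828 and Trh at 0.157 ± 0.218 TPM, with Gal listed at 0 in all 5. Neighbours in either order lay within 1 SD of each other, except Vip, whose mean was more than 1 SD below that of Nmb in lateral libraries. Near 0, with a mean under 1 TPM, were Vip in both regions and Trh and Gal in the medial shell. For scale, the enkephalin precursor gene Penk averaged 2418 TPM over the 10 libraries, the neuropeptide Y gene Npy 729 TPM, and the neurotensin gene Nts 192 TPM.

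**Figure D1:**
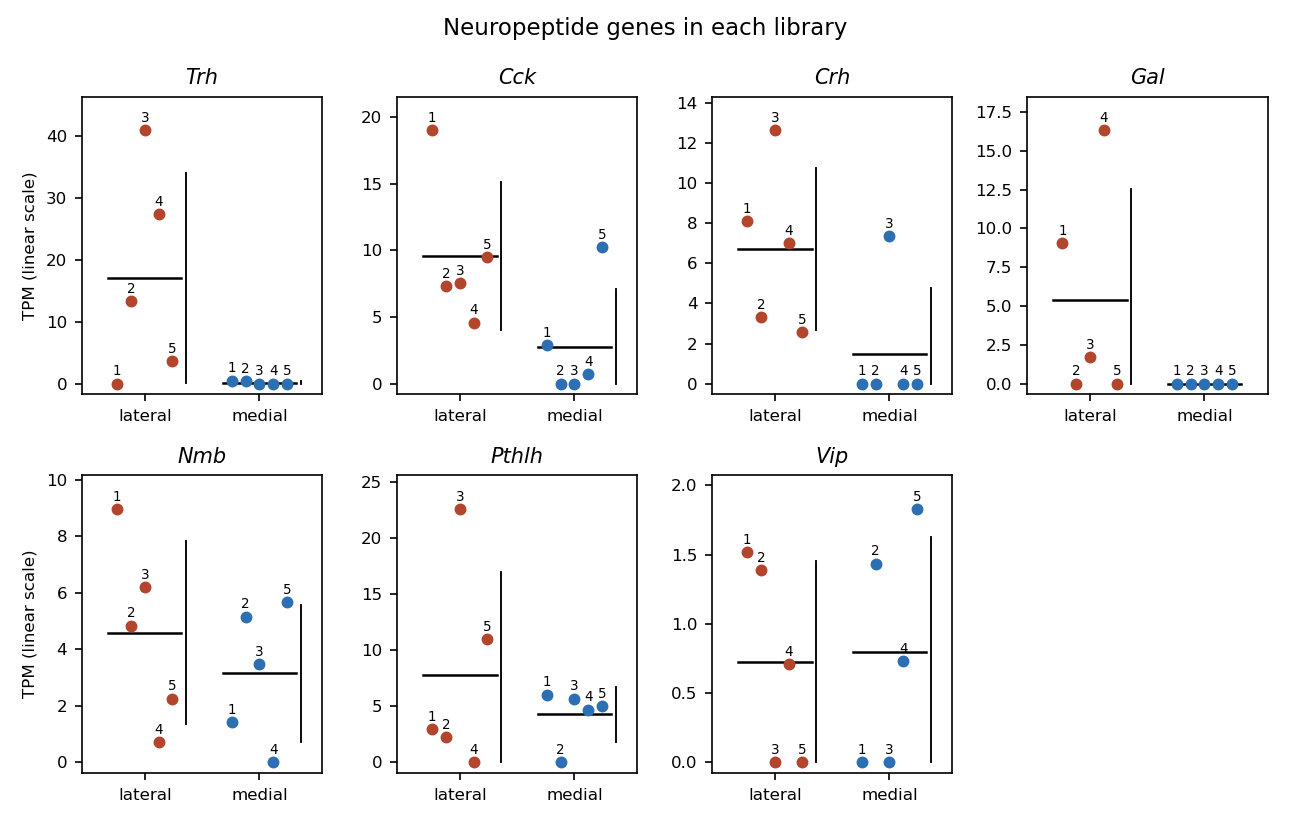
TPM (linear axis, its own range in each panel) of the 7 neuropeptide genes in the 5 lateral and 5 medial libraries. Each point is a library with its replicate number, horizontal lines are group means and vertical lines 1 SD to either side, stopped at 0. Trh and Gal sit at or near 0 in every medial library, Cck and Crh are above 0 in every lateral library, and Nmb, Pthlh and Vip overlap widely.

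Differences were tested with limma on log2(TPM + 1) over the 15596 genes with at least 1 TPM in at least 5 of the 10 libraries. Of the 7 genes, Cck, Crh, Nmb and Pthlh met this filter, while Trh, Gal and Vip did not and were tested in a second fit without it. Cck and Crh reached 1 TPM in all 5 lateral libraries and in only 2 and 1 medial ones. The lateral libraries thus carried both through the filter, and their lateral direction in the counts below is partly set by it. None of the 4 passed at a Benjamini-Hochberg adjusted p under 0.05, where 1.48% of all tested genes passed, 0.385% towards the lateral and 1.1% towards the medial shell. At an unadjusted p under 0.05, 2 of the 4 were higher in lateral, where 3.03% of all tested genes were. Without the filter none of the 7 passed, where 0.225% of genes passed towards lateral and 0.601% towards medial. In none of the 4 were the groups free of overlap, against 0.859% of tested genes with lateral higher and 3.39% with medial higher. Of the 7, 4 were higher in lateral at an unadjusted p under 0.05, against 2.6% of genes. All 4 genes that met the filter had a higher lateral mean on the log2 scale, which 31.3% of tested genes had. Their median log2 fold change was 1.25, and that of all tested genes was -0.21, so most genes were lower in lateral at this scaling. The genes were chosen with earlier results of these data known, so these shares describe the genes and carry no test of the list.

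Trh, the precursor of thyrotropin-releasing hormone (chromosome 6, 92242061 to 92244650, minus strand, GRCm38), was found in lateral libraries almost alone. Its level in lateral replicates 1 to 5 was 0, 13.4, 40.9, 27.4 and 3.59 TPM. In medial replicates 1 and 2 it was 0.438 and 0.349 TPM, and it was listed at 0 in the other three. So 4 lateral libraries stood above every medial one, and the lateral library listed at 0 was the only overlap. The fold change without the filter was 3.06 on the log2(TPM + 1) scale (95% interval 1.23 to 4.89), and missed the threshold (limma adjusted p = 0.135, unadjusted p = 0.00322). Without lateral replicate 1 the difference was 3.87, and without lateral replicate 3, the highest, it was 2.53.

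Gal, the precursor of galanin (chromosome 19, 3409915 to 3414544, minus strand), was listed at 0 in all 5 medial libraries. It stood at 9.04 TPM in lateral replicate 1, 1.69 TPM in replicate 3 and 16.3 TPM in replicate 4, and at 0 in replicates 2 and 5. Of all genes listed, 5.18% were at 0 in all medial libraries. The lateral values were high in some libraries and absent in others, so they overlapped the medial ones at 0. Its difference of 1.77 on the log2(TPM + 1) scale (95% interval 0.19 to 3.35) did not pass (limma without the filter, adjusted p = 0.327, unadjusted p = 0.0306). No fold is given on the linear scale against a group listed at 0. Without lateral replicate 4 the difference was 1.19.

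Cck, the precursor of cholecystokinin (chromosome 9, 121489824 to 121495694, minus strand), was detected in every lateral library. The lateral values were 19.0, 7.34, 7.52, 4.58 and 9.47 TPM in replicates 1 to 5. The medial values were 2.89, 0, 0, 0.697 and 10.2 TPM. All lateral libraries exceeded 4 of the medial ones, and medial replicate 5 lay above 4 of the lateral ones. The mean was 3.47 times higher in lateral, and the log2 fold change was 2.03 (SE 0.63, 95% interval 0.67 to 3.38, limma adjusted p = 0.145). Medial replicate 5 decided the call: without it the log2 fold change was 2.59 (adjusted p = 0.0433), and over the other alternatives the adjusted p was 0.108 to 0.384.

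Crh, the precursor of corticotropin-releasing hormone (chromosome 3, 19693401 to 19695396, minus strand), is best known as the hypothalamic peptide that starts the hormonal stress response. It stood at 8.11, 3.31, 12.65, 7.01 and 2.55 TPM in lateral replicates 1 to 5. Among the medial libraries it reached 7.36 TPM in replicate 3 and was listed at 0 in the other 4. The groups overlapped through that library alone, which lay between lateral replicates 4 and 1. The log2 fold change was 2.17 (SE 0.63, 95% interval 0.80 to 3.53, limma adjusted p = 0.121), with a mean 4.57 times higher in lateral. Without medial replicate 3 the log2 fold change was 2.78 and passed (adjusted p = 0.0231), while over the other alternatives that kept it tested the adjusted p was 0.0882 to 0.255.

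**Figure D2:**
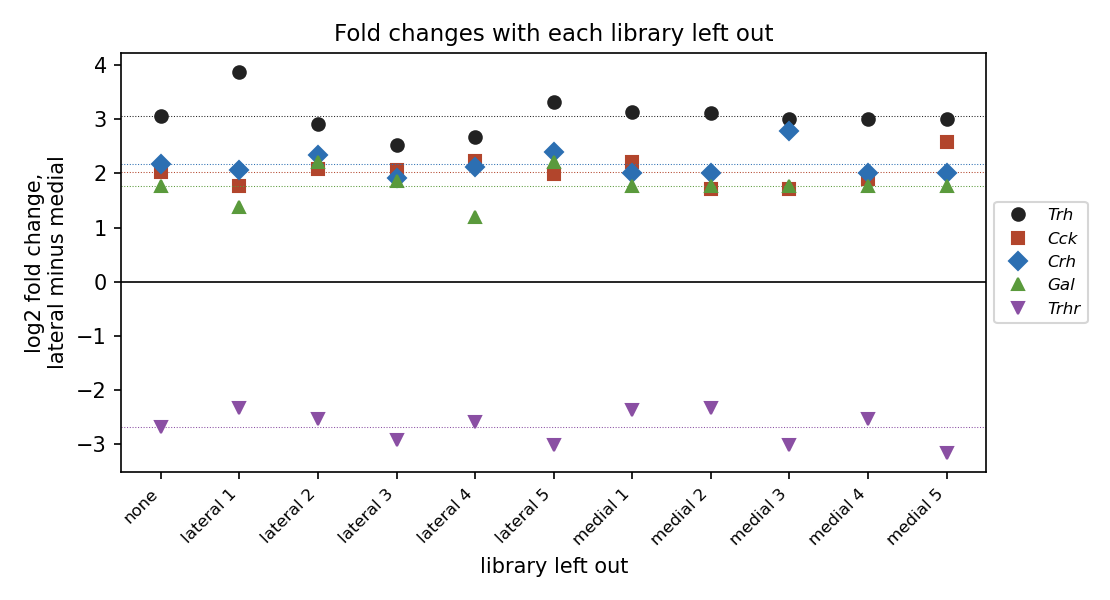
Log2 fold change, lateral minus medial, on log2(TPM + 1) for Trh, Cck, Crh, Gal and the receptor gene Trhr with all libraries (none) and with each of the 10 libraries left out. Dotted lines mark the value with all libraries. No single library turns a direction, and Trh ranges most, from 2.53 to 3.87.

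Nmb, the precursor of neuromedin B, a bombesin-like peptide (chromosome 7, 80902227 to 80905076, minus strand), was present in both regions. It stood at 8.97, 4.84, 6.20, 0.71 and 2.25 TPM in lateral and at 1.42, 5.16, 3.48, 0 and 5.67 TPM in medial replicates 1 to 5. High and low libraries occurred in both groups. Its log2 fold change of 0.48 (95% interval -0.82 to 1.77, limma adjusted p = 0.75) left room for a difference in either direction. Nmb overlaps Sec11a on the same strand, so reads in the shared part cannot be assigned to one gene from position alone. Pthlh, the precursor of parathyroid hormone-related protein (chromosome 6, 147252101 to 147264183, minus strand), marks a class of striatal interneurons that includes parvalbumin cells. Its values were 2.98, 2.26, 22.6, 0 and 10.96 TPM in lateral and 6.03, 0, 5.69, 4.70 and 5.00 TPM in medial replicates 1 to 5. Lateral libraries held both the highest value and one of the values at 0, and 4 medial libraries lay close together. The log2 fold change was 0.24 (95% interval -1.46 to 1.93, adjusted p = 0.915), and its sign turned without lateral replicate 3 (-0.31), lateral replicate 5 (-0.066) or medial replicate 2 (-0.29).

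Vip, the precursor of vasoactive intestinal peptide (chromosome 10, 5639218 to 5647617, plus strand), was near 0 throughout. Lateral values were 1.52, 1.39, 0, 0.709 and 0 TPM and medial values 0, 1.44, 0, 0.728 and 1.83 TPM. In each region 3 libraries were above 0 and 2 at 0. The difference was -0.04 on the log2(TPM + 1) scale (95% interval -0.97 to 0.89, limma without the filter, adjusted p = 0.976).

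The libraries that were high differed from gene to gene. Lateral replicate 3 had the highest Trh, Crh and Pthlh, lateral replicate 1 the highest Cck and Nmb, and lateral replicate 4 the highest Gal. Among medial libraries replicate 5 was highest in Cck, Nmb and Vip. Summed over the 7 genes, the level was 28.8 to 91.5 TPM laterally and 6.12 to 22.7 TPM medially. The highest sum, in lateral replicate 3, held 40.9 TPM of Trh. None of the 7 genes was free of overlap on its own, so the sums do not describe each gene.

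Receptors are the other side of this signalling. Of 18 listed receptor and binding protein genes 10 were analysed and 7 met the filter. None of the 7 passed (background 0.385% and 1.1%, as above), and 2 had an unadjusted p under 0.05, both higher in medial, where 12.3% of tested genes were. Trhr, the receptor of thyrotropin-releasing hormone, was at 0, 0.732, 4.11, 1.02 and 5.69 TPM in lateral and at 38.2, 43.8, 5.56, 24.3 and 3.48 TPM in medial replicates 1 to 5. Medial replicates 1, 2 and 4 lay far above all lateral libraries, and medial replicates 3 and 5 lay within their range. The means were 2.31 ± 2.46 TPM laterally and 23.1 ± 18.4 TPM medially (SD, n = 5 each). The log2 fold change of -2.68 (SE 0.70, 95% interval -4.19 to -1.17) did not pass (limma adjusted p = 0.082), nor under any of the 22 alternatives kept (adjusted p from 0.0545 to 0.199). A further alternative without medial replicates 3 and 5, in which Trhr did pass, was run and dropped because those libraries had been picked by the measured values. Trh and its receptor gene thus had their higher means in opposite regions.

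Adcyap1r1, the receptor of the peptide PACAP, was the most abundant of the 10, at 17.1 ± 6.45 TPM laterally and 30.5 ± 8.64 TPM medially (SD, n = 5 each). Its log2 fold change was -0.82 (95% interval -1.42 to -0.21, limma adjusted p = 0.186). The lateral values ran from 10.9 to 26.4 TPM and the medial ones from 18.3 to 40.1 TPM, so the groups overlapped. Galr1, a galanin receptor, was listed at 0 in all 5 medial libraries and at 1.18, 0.396, 2.72, 1.07 and 0.969 TPM in lateral replicates 1 to 5. It was the only one of the 17 peptide and receptor genes whose groups did not overlap, against 0.698% of genes in the table with lateral higher and 2.66% with medial higher. Of all genes listed, 5 (0.0244%) were at 0 in every medial and above 0 in every lateral library. That category repeats the pattern of Galr1 itself, so its share is no yardstick for Galr1. The levels were close to 0, and the difference of 1.11 on the log2(TPM + 1) scale did not pass (limma without the filter, adjusted p = 0.139, unadjusted p = 0.00353). With a pseudocount of 0.1 or 5 it was 3.55 or 0.32.

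**Figure D3:**
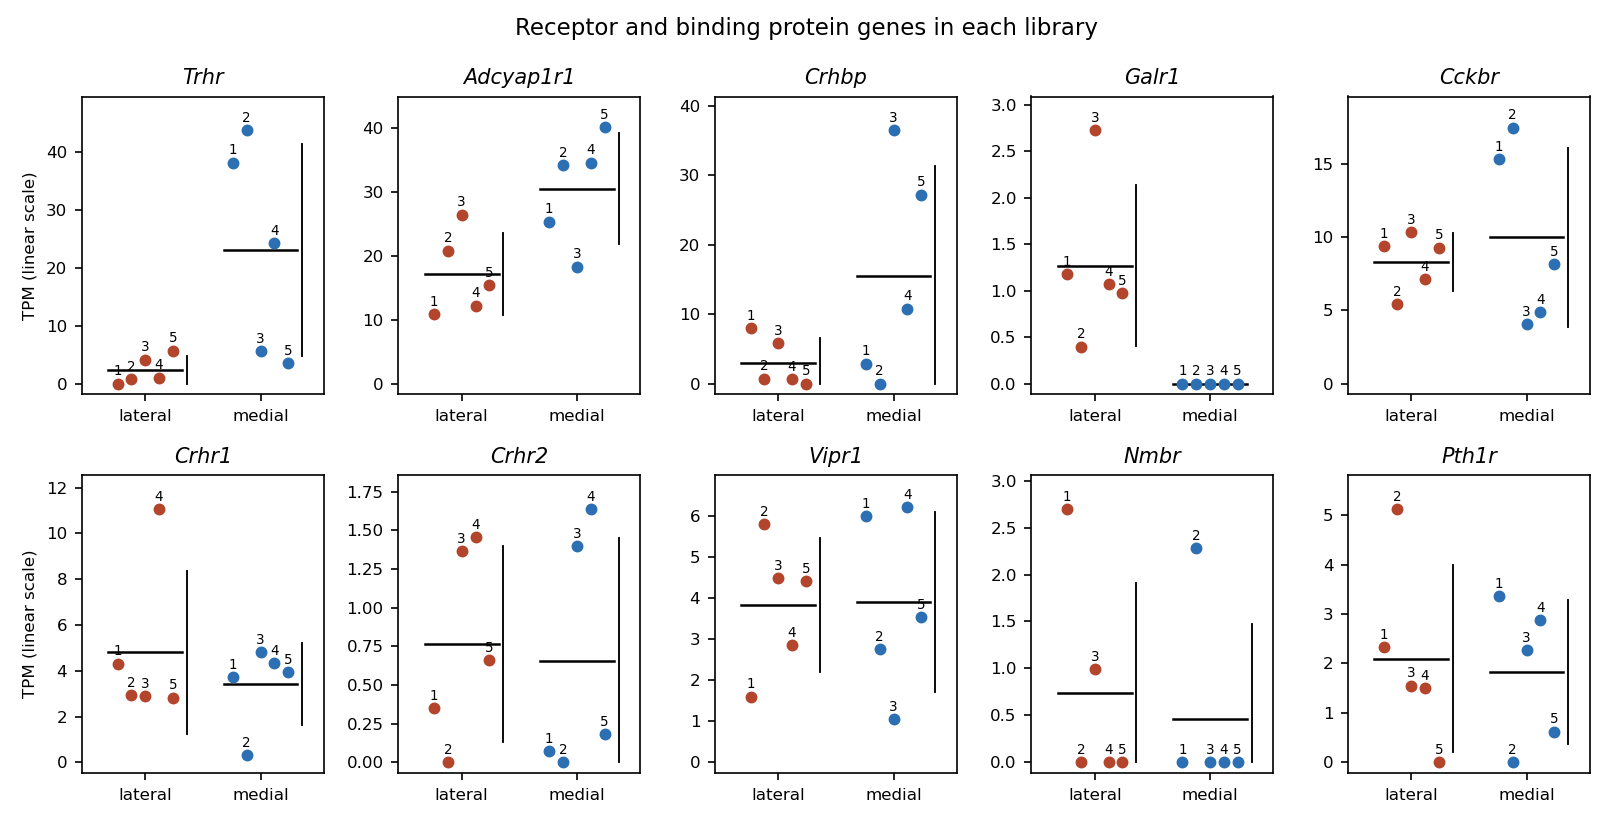
TPM (linear axis, its own range in each panel) of 10 receptor and binding protein genes in the 5 lateral and 5 medial libraries. Points are libraries with their replicate number, horizontal lines means and vertical lines 1 SD to either side, stopped at 0. Trhr is far above the lateral range in 3 medial libraries, and Galr1 is at 0 in all medial libraries.

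Crhbp, which encodes a protein that binds and sequesters corticotropin-releasing hormone, varied widely within the medial shell. It stood at 2.85, 0, 36.4, 10.8 and 27.2 TPM in medial replicates 1 to 5 and between 0 and 7.96 TPM in lateral libraries (a difference of -1.63 on the log2 scale with a 95% interval of -3.63 to 0.37, limma adjusted p = 0.43). The Crh receptor genes Crhr1 and Crhr2 were at 4.81 ± 3.56 and 0.767 ± 0.633 TPM in lateral and at 3.42 ± 1.79 and 0.658 ± 0.792 TPM in medial libraries (SD, n = 5 each). Cckbr, the main cholecystokinin receptor of the brain, averaged 8.31 ± 1.99 TPM laterally and 9.97 ± 6.10 TPM medially. Its log2 fold change was -0.08 (95% interval -0.89 to 0.74, adjusted p = 0.946). The sign turned under median-ratio scaling (0.11) and quantile normalization (0.17). Vipr1, which binds vasoactive intestinal peptide and PACAP, Pth1r, the receptor of parathyroid hormone-related protein, and the neuromedin B receptor gene Nmbr had lateral means of 3.83, 2.1 and 0.737 TPM and medial means of 3.91, 1.83 and 0.456 TPM. Their intervals all included 0. Pth1r overlaps Myl3, and Nmbr overlaps Gje1 and other genes, on the opposite strand. The strand setting is not given, so reads in the shared parts may be counted for either gene.

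**Figure D4:**
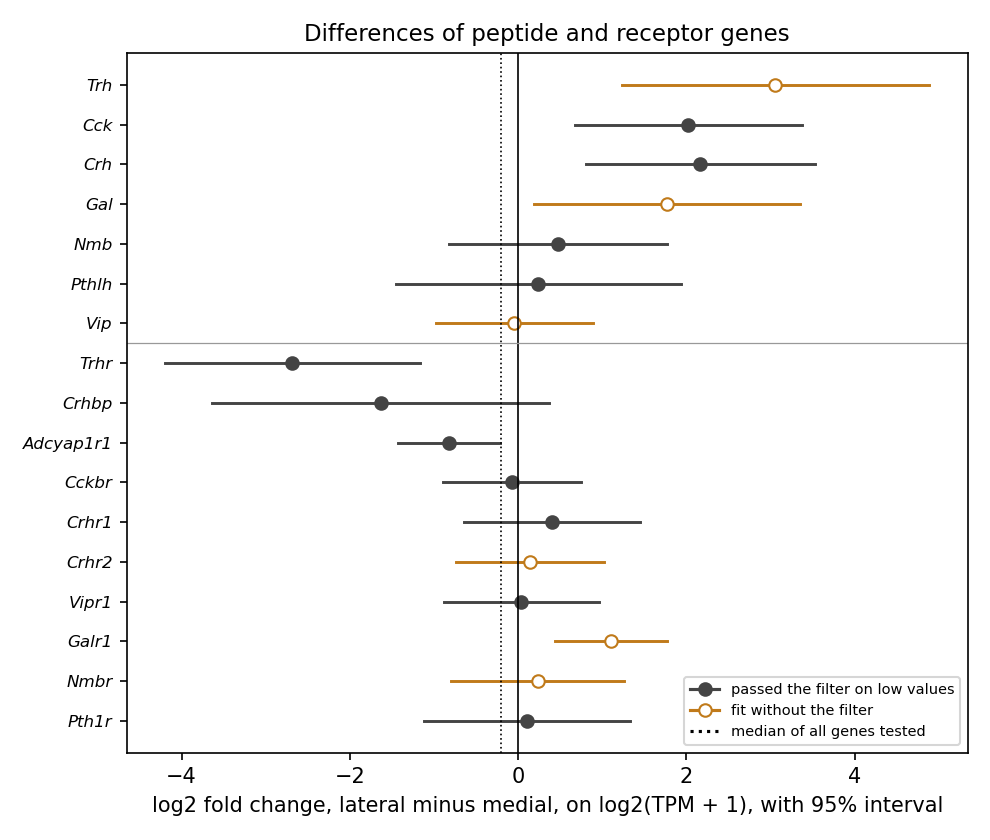
Log2 fold change, lateral minus medial, on log2(TPM + 1) with its 95% interval, for 7 peptide genes (above the line) and 10 receptor and binding protein genes. Open circles are genes tested without the filter on low values, and the dotted line is the median of all tested genes at -0.21. The intervals of Trh, Cck, Crh, Gal and Galr1 lie above 0 and those of Trhr and Adcyap1r1 below it, before adjustment over all genes.

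Among the genes for enzymes that make and break down these peptides, and for their helper proteins, no difference was detected. All 12 listed genes met the filter and none passed, nor did any have an unadjusted p under 0.05 (background 15.4% in either direction), with a median log2 fold change of 0.05. The smallest p-values belonged to Trhde, which encodes the enzyme that degrades thyrotropin-releasing hormone (3.12 TPM laterally and 2.20 medially, a log2 difference of 0.81, limma adjusted p = 0.49), Ece1 (0.29, adjusted p = 0.557), the carboxypeptidase gene Cpe (-0.24, adjusted p = 0.582) and Mme, encoding neprilysin (-0.75, adjusted p = 0.675). Cpe averaged 1132 TPM, and the prohormone convertase genes Pcsk2 and Pcsk1 averaged 63.6 and 7.89 TPM. Of 10 related ligand genes only Gast, encoding gastrin, was analysed, and it was above 0 in 2 lateral and 3 medial libraries.

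Marker genes of other cells also differed in level between the libraries. All 12 markers of spiny projection neurons were found, with a summed level of 3577 to 6082 TPM in lateral libraries against 3491 to 5675 TPM in medial ones. The 4 markers of Sst and Npy interneurons all had higher lateral means, and their sum was 467 to 5580 TPM laterally and 10.6 to 1656 TPM medially. Their highest sums were in lateral replicate 3 and, among medial libraries, replicate 5. Sst was at 0 in medial replicate 1. Of 6 other interneuron markers 5 had higher lateral means (sums of 42.0 to 144 and 12.9 to 69.9 TPM), and Calb2 had a higher medial mean (2.00 TPM laterally and 10.3 TPM medially). Pvalb was at 24.3, 7.92, 15.9, 2.19 and 7.79 TPM in lateral replicates 1 to 5, at 18.2 and 2.18 TPM in medial replicates 1 and 4, and at 0 in the other three. The 5 microglia markers (211 to 298 against 76.8 to 190 TPM) and the 5 oligodendrocyte markers (219 to 667 against 71.3 to 311 TPM) all had higher lateral means, and the 3 neuroblast markers (8.14 to 23.5 against 27.7 to 52.4 TPM) higher medial means. Of these, 3 microglia markers passed, where 0.385% of tested genes passed towards lateral, and 1 neuroblast marker, where 1.1% passed towards medial. Without the filter on low values 1 microglia marker passed, C1qa (limma adjusted p = 0.0484). The 5 astrocyte markers summed to 94.95 to 266 TPM laterally and 195 to 298 TPM medially, and none passed. Gja1 (48.9 and 93.3 TPM) and Slc1a3 (70.1 and 105 TPM) had lower lateral means, and Gfap (14.1 and 3.42 TPM) a higher one. The 4 cholinergic markers summed to 9.25 to 268 TPM laterally and 12.4 to 198 TPM medially. The 5 septal markers analysed summed to 4.13 to 33.9 and 1.46 to 40.0 TPM. Lhx8, the septal marker with the highest mean, was high in the same libraries as the cholinergic gene Chat. In lateral replicates 1 to 3 Lhx8 was at 20.4, 8.20 and 15.3 TPM and Chat at 39.3, 8.48 and 21.8 TPM. In medial replicates 4 and 5 Lhx8 was at 26.7 and 27.4 TPM and Chat at 33.7 and 49.1 TPM. Zic1, another septal marker, was also highest in lateral replicates 1 and 3 (9.53 and 7.05 TPM) and in medial replicates 4 and 5. Zic5 differed in part, at 1.89 TPM in lateral replicate 4 and at 0 in medial replicate 5. Which cells the septal sums came from was not tested. Of 10 markers of cortical and claustral glutamatergic neurons, which lie near the region and express Cck, 5 were analysed, with sums of 6.42 to 15.8 TPM laterally and 9.34 to 13.4 TPM medially. Most of these sums came from Rorb and Cux2, which averaged 5.85 and 3.53 TPM over the 10 libraries. Neurod6, Fezf2 and Nr4a2 each averaged under 1 TPM. Neurod6 was at 3.31 TPM in lateral replicate 1, the library with the most Cck (19.0 TPM), and at 1.06 TPM or less elsewhere. Its value of 1.06 TPM was in medial replicate 3, where Cck was listed at 0. In medial replicate 5, with 10.2 TPM of Cck, Neurod6 was listed at 0. Fezf2 was highest in lateral replicate 2 (1.49 TPM) and Nr4a2 in medial replicate 4 (2.46 TPM). The part of these cells in the peptide differences was not tested.

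Genes with a pattern most like a peptide gene were taken by Pearson correlation of log2(TPM + 1) over the 10 libraries, for the 3 peptide genes that averaged 5 TPM or more, among 9137 genes for Cck and Pthlh and 9138 for Trh. They are given as a description, since the libraries share the region difference and the best of so many genes is high by selection. Cck was most like Stmn4, a stathmin family gene (r = 0.941, Spearman 0.961), Mgst3 (0.939) and Tpi-rs11 (0.913). Stmn4 was at 76.5 to 123 TPM in lateral libraries and at 86.9 TPM in medial replicate 5, the medial library with the most Cck. Trh was most like Bsn, which encodes the presynaptic scaffold protein Bassoon (0.938), Dazl (0.887) and Hip1 (0.874). Bsn was at 21.3 TPM in lateral replicate 1, where Trh was at 0, and at 26.1 to 37.7 TPM in the other lateral libraries. Pthlh was most like Moxd1 (0.945, Spearman 0.888), Pbx2 (0.91) and Igfbp4 (0.909). Over deviations from the group means Moxd1 (0.953) and Igfbp4 (0.91) were again among its 3 best, with Smurf2, while the best for Trh were Cfp, Col6a1 and Fmn2 and for Cck Aldh6a1, Ficd and Thap4.

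Peptide genes are classic targets of cyclic AMP signalling, and their promoters were searched for the response element TGACGTCA and for its core TGACG, on both strands. RefSeq promoters of GRCm38.p6, 250 bases before to 50 after the start, were given for 6 of the 7 genes, all but Crh. None of the 6 held TGACGTCA, which 1.79% of 32851 promoters hold. TGACG, which every full element also contains, stood once each in Trh, Cck, Vip and Gal, where 20.8% of promoters hold it. A match describes letters in this window and is no evidence of binding. In Trh, Cck and Vip it lay before the start, and these stretches are shown to let the genes be compared. Capitals mark the core, read on the other strand as CGTCA.
Trh, chr6:92244712-92244776, minus strand: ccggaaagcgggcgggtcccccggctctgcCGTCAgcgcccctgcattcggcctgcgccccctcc
Cck, chr9:121495707-121495771, minus strand: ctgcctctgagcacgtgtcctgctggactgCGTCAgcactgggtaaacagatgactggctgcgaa
Vip, chr10:5639109-5639173, plus strand: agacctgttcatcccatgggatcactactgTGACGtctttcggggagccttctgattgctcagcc

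Across the whole series each library listed 15402 to 17003 genes above 0, and mitochondrially encoded genes took 23.5% to 35.3% of its TPM. In all, 60 genes were higher in lateral and 171 in medial (74% medial), and median-ratio scaling gave 88 and 82 (48.2% medial), quantile normalization 86 and 100 (53.8% medial). AY036118 was at 1.38 TPM in lateral replicate 5 and 1.42 TPM in medial replicate 2, and at 82500 TPM or more elsewhere. Without these 2 libraries none of the 4 peptide and 7 receptor genes that met the filter passed. The log2 fold changes of Cck and Crh were then 1.69 and 2.25, and those of Trh and Gal, which were not tested there, 3.38 and 2.22.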

How the data were processed

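Geo-seq libraries of lateral and medial shell (n = 5 each) were given by the authors as TPM, scaled to 1000000 per sample, in 1 deposited table. Per the submitters' processing notes, the tools were StringTie 1.3.4, featureCounts 1.6.3, HISAT2 2.1.0 and fastp 0.20.0, with the build GRCm38 (mm10). Their roles, the annotation, the strand setting and any gene filter are not given in the sources used. TPM keeps no depth, so depth is unknown, values carry no interval for counting error, and a 0 is called listed at 0.

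Tests used limma 3.58.1 in R 4.3.3 (empirical Bayes with a mean-variance trend, 2-sided) on log2(TPM + 1), which understates changes of low genes. Benjamini-Hochberg adjustment ran over all genes of the fit, at 0.05. The script was tested on simulated data. The simulated spread was changed once after a first result with too many false calls, and their share then still lay above the nominal level. All 20483 symbols occur in GENCODE M21, the source of coordinates and coding sequences, of which 1 complete one per gene was taken (the longest marked as APPRIS principal, otherwise the longest). Promoters are RefSeq's. Figures used matplotlib 3.10.9.

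The members, lists and rules were chosen with earlier results of these data known. Named are all members and receptors, up to 4 genes of each other pathway list with the smallest p, and the 3 most alike genes. Alternatives changed the pseudocount, filter, scaling, variance model, sample weights, a block and each library in turn.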

Additional observations from a re-analysis of the deposited data

Results flagged for a closer look

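Of the 34 sets of 5 values, 6 had 1 library far from the others (its gap to the nearest above 0.71 of the range). The 34 include Gal and Galr1 in medial libraries, all at 0, which could not be flagged. Chance flags about 1 in 20 sets of normally distributed values, but TPM near 0 are not such values, so that rate is no yardstick here. A set with 1 value above 0 and the rest at 0 is always flagged, as for Crh and Nmbr in medial libraries. Cck was at 10.2 TPM in medial replicate 5, with the next medial library at 2.89 TPM, and Crh at 7.36 TPM in medial replicate 3, with the others at 0. Pthlh was listed at 0 in medial replicate 2, with the next at 4.70 TPM. Crhr1 was at 11.1 TPM in lateral replicate 4, against 4.31 TPM in the next, and at 0.298 TPM in medial replicate 2, against 3.72 TPM in the next. Nmbr was at 2.28 TPM in medial replicate 2 and at 0 in the other medial libraries.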

How the results depend on the processing

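No tested receptor gene passed under any of the 22 alternatives kept. Trhr did pass in a further one without medial replicates 3 and 5, which was dropped because those libraries had been picked by the measured values. No tested peptide gene passed under the 12 alternatives that keep all libraries or leave out 2, and leaving out 1 library gave 0 to 1 peptide genes, Cck without medial replicate 5 or Crh without medial replicate 3. The counts over all genes also moved with the processing. They cannot be set against the peptide count, since few peptide genes were tested and that count could hardly move. Genes higher in lateral (60) numbered 34 without a mean-variance trend, 19 with the replicate block, 12 without lateral replicate 5 and medial replicate 2 (chosen after seeing the data) and 23 to 69 without single libraries. Genes higher in medial (171) numbered 107 with a pseudocount of 0.1, 82 with median-ratio scaling, 100 with quantile normalization, 111 without the trend, 45 with the block, 31 without the same 2 libraries and 56 to 188 without single libraries. Same-numbered libraries did not stand out as alike. Their deviations from the group means correlated at -0.0534 to 0.0417, and 0 of 5 lateral libraries correlated best with the medial library of their own number. Such weak correlations cannot tell whether same-numbered libraries share an animal. The block changed no call of the 11 peptide and receptor genes tested under it. With it the limma adjusted p was 0.0882 for Crh, 0.119 for Cck and 0.199 for Trhr. Among tested genes, these changed sign. For Pthlh the log2 fold change was -0.015 with sample weights, -0.60 without the 2 libraries and -0.31 to 0.83 without single ones. For Cckbr it was 0.11 with median-ratio scaling, 0.17 with quantile normalization, 0.12 without the 2 libraries and -0.31 to 0.16 without single ones. For Vipr1 it was -0.082 and -0.24 to 0.24, for Crhr1 -4.8e-05 to 0.54, and for Pth1r -0.22 to 0.46. The causes were not tested. A pseudocount of 0.1 or 5 gave 4.89 or 1.67 for Trh, 3.61 or 0.80 for Gal, 3.52 or 0.98 for Cck and 4.62 or 0.90 for Crh. With levels of a few TPM and depth unknown, absence cannot be told from a level below detection.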

Other observations

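Th, encoding tyrosine hydroxylase, the rate-limiting enzyme of dopamine synthesis and a marker of a class of striatal interneurons, was high in the same lateral libraries as Trh, a pattern chosen after its values were seen. It was at 0, 44.6, 75.2, 39.1 and 1.24 TPM in lateral replicates 1 to 5, where Trh was at 0, 13.4, 40.9, 27.4 and 3.59 TPM. In medial replicates 1 and 2, where Trh was at 0.438 and 0.349 TPM, Th was at 0 and 6.75 TPM. In medial replicates 4 and 5, where Trh was listed at 0, Th was at 15.3 and 15.6 TPM.

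Within the medial shell, also chosen after the values were seen, Trhr and Crhbp varied from library to library. Medial replicates 1 and 2 held 38.2 and 43.8 TPM of Trhr and 2.85 and 0 TPM of Crhbp, and medial replicates 3 and 5 held 5.56 and 3.48 TPM of Trhr and 36.4 and 27.2 TPM of Crhbp. Medial replicate 4 held much of both, at 24.3 TPM of Trhr and 10.8 TPM of Crhbp, the latter above every lateral library. The calretinin gene Calb2 was at 0.55 and 0.706 TPM in medial replicates 1 and 2 and at 17.1, 13.6 and 19.4 TPM in medial replicates 3 to 5. Chat, the acetylcholine-synthesizing enzyme of cholinergic neurons, was at 0 and 0.418 TPM in the first 2 and at 5.45, 33.7 and 49.1 TPM in the other 3.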
